A study of Mus musculus with 18 samples.

Results

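The 9 genes described here are transcription factors and a corepressor that give cortical excitatory neurons their layer identity: Bcl11b, Bcl11a, Fezf2, Tbr1, Tle4, Cux1, Cux2, Pou3f2 and Pou3f3. They were taken by symbol from the gene list of a single-nucleus RNA-seq experiment on mouse forebrain at embryonic day 14 (E14), and all 9 were found among its 55335 genes. The groups were embryos labelled WT, Het and KO for MYT1L, a zinc finger transcription factor of newborn neurons, with 3 animals each. All carried the strain label MYT1L S710fsX, a frameshift line, the WT animals included, and no Cre or other agent was used. Each animal was sequenced in 2 runs, which were summed, and the animal was the replicate. The genotype tag of the run 1 libraries reads WT for every animal, against the titles, so groups were taken from the titles.

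In the developing cortex radial glia give rise to intermediate progenitors, and these to excitatory neurons that settle in layers in order of birth, deep layers first. Fezf2 and Bcl11b (also called Ctip2) specify deep-layer neurons that project out of the cortex, and Tbr1 and the corepressor Tle4 act in deep neurons that project to the thalamus. Cux1 and Cux2 mark upper-layer neurons and their precursors, Pou3f2 and Pou3f3 (Brn2 and Brn1) are POU-domain factors that act in the production and migration of upper-layer neurons, and Bcl11a is a relative of Bcl11b found in many newborn neurons.

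Positions are those of GENCODE vM21 on GRCm38. Of the deep-layer factors, Bcl11b lies at chr12:107910403-108003602 (minus strand), Fezf2 at chr14:12342094-12348189 (minus), Tbr1 at chr2:61802930-61814114 (plus) and Tle4 at chr19:14448150-14598051 (minus), and no other annotated gene overlaps them. Bcl11a lies at chr11:24078056-24174123 (plus) and holds 2 antisense genes. Cux1 and Cux2, paralogs on 1 chromosome, lie at chr5:136248135-136567490 and chr5:121856366-122050102 (both minus), with 4 and 2 overlapping noncoding genes. Pou3f2 lies at chr4:22482780-22488366 (minus), and Pou3f3 at chr1:42695768-42703176 (plus), with 1 overlapping transcript on its own strand. The sources used here do not say if counting was strand-specific, so values of Bcl11a, Cux1, Cux2 and Pou3f3 may hold reads of overlapping genes.

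The promoter windows of the Cux genes are shown because Cux2 was called by edgeR in KO nuclei of an upper-layer or migrating neuron-like cluster described further on, and Cux1 is its paralog. Each window runs from 250 bases before to 50 bases after a RefSeq start (GRCm38.p6) and is written on the minus strand, and capitals mark AAGTT or AACTT, the core bound by MYT1-family zinc fingers read on either strand. The Cux2 windows are chr5:122049802-122050101 and chr5:122047776-122048075, and the Cux1 window is chr5:136565932-136566231.
Cux2, first start: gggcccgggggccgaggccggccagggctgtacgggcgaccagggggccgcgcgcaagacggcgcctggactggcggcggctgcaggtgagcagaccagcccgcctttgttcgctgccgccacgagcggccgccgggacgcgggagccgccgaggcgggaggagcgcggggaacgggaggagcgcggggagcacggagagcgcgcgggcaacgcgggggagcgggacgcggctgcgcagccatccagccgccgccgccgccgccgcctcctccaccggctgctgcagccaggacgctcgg
Cux2, second start: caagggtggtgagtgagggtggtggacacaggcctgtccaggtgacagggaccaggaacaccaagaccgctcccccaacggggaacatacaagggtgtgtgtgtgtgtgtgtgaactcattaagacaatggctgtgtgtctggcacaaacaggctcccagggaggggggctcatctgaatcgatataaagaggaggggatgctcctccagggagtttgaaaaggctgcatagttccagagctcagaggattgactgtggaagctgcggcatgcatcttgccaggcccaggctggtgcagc
Cux1: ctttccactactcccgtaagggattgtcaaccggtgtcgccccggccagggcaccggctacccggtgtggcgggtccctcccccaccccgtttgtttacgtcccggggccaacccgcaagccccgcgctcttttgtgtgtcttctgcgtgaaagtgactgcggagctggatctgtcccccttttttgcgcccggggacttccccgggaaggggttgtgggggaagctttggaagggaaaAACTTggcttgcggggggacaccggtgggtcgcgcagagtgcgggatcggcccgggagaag
Neither Cux2 window held the core, and the Cux1 window held it once. Over the members 4 of 11 windows held it (those of Cux1, Bcl11a, Bcl11b and Fezf2), beside 39.3% of all 32851 windows of this length. A match is a description of these letters and not a binding site.

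After filtering, 194631 nuclei were kept, with 14801 to 26065 per animal and a median of 2520 unique molecular identifiers (UMIs) each. Clustering that left the 9 members out of its genes gave 33 clusters, 7 of them excitatory neuron-like (57256 nuclei) and 2 intermediate progenitor-like (11246 nuclei) by their markers. Cluster 5, with 11568 nuclei led by Tfap2d and Tafa1, stayed unnamed because a listed oligodendrocyte progenitor marker, Lhfpl3, was among its leading genes, and it is given by number beside the named clusters. The planned cluster fits covered only named clusters, and cluster 5 was added to them. In each run, Xist and 4 Y-linked genes marked WT replicate 3 as female and the remaining 8 animals as male, so sex is not balanced over genotypes. KO replicate 1 stood apart in the make-up of the excitatory neuron-like class, with 19.7% of its nuclei in cluster 2, where the other animals had 12.9% to 15.1%.

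Myt1l itself was at 1797, 2034 and 1922 CPM (counts scaled to a common total per animal and cell group) in WT, 1986, 2209.7 and 2145 CPM in Het and 2224, 2452 and 2239.7 CPM in KO excitatory neuron-like nuclei. A frameshift leaves the RNA countable, so this does not check the genotype. KO animals were all above WT animals, with a log2 fold change of 0.29 ± 0.08 (SE) that did not pass without a replicate block (adjusted p = 0.124 by edgeR) and passed with it (adjusted p = 0.000312).

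Fezf2 was highest in excitatory lineage clusters 2 and 4, where the Cux and Pou3f genes were lowest. Outside these clusters the genes did not simply oppose, since clusters 3, 23 and 22, next in order for Fezf2, were the highest for Cux1. Bcl11b and Bcl11a were high both in cluster 2 and in cluster 17, where Cux2 was high. Levels are CPM of counts summed per animal, given as mean ± SD over the 9 animals as a description with no test. They are compared between clusters for 1 gene and not between genes, since the counts are not per length.

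**Figure D1:**
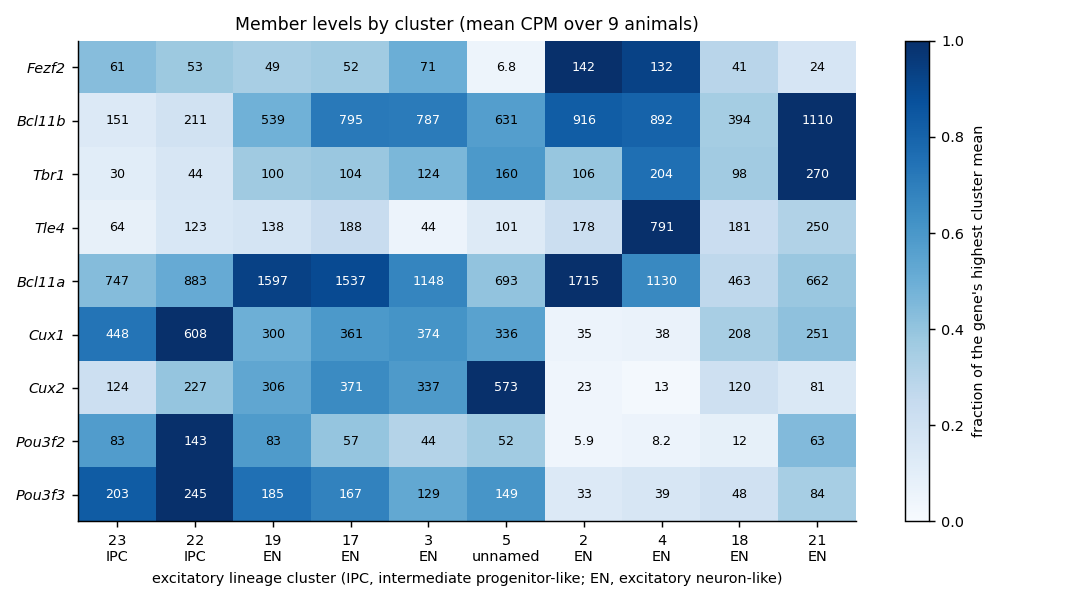
Mean CPM over 9 animals of each member (rows) in the 10 excitatory lineage clusters (columns), printed in each cell, with colour as the fraction of the gene's highest cluster mean. Fezf2 is highest in clusters 2 and 4, where Cux1, Cux2, Pou3f2 and Pou3f3 are lowest.

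Fezf2 was highest in cluster 2 (142 ± 14.6 CPM), led by Nr4a3, Slit3 and Rasgrf1, and in cluster 4 (132 ± 9.99 CPM), which was deep-layer-like with 8 of 12 listed deep-layer markers and led by Hs3st3b1, Rgs6 and Nfe2l3. The animals of these clusters overlapped and lay apart from the next in order, cluster 3 (70.7 ± 12.5 CPM). Intermediate progenitor-like nuclei held Fezf2 at 61.2 ± 5.84 CPM in cluster 23 and 53.5 ± 11.1 CPM in cluster 22. The lowest level was 6.76 ± 1.78 CPM in cluster 5.

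Tle4 was high in a single cluster. It stood at 791 ± 80.2 CPM in cluster 4, and cluster 21, the next, was apart from it at 250.3 ± 47.3 CPM. Cluster 2, which shared high Fezf2, was at 178 ± 12.97 CPM, and cluster 3 was lowest, at 44.4 ± 7.37 CPM. Tbr1 was highest in cluster 21 (270.4 ± 51.1 CPM), and in cluster 4 (204 ± 39.2 CPM). Cluster 21 is a small cluster of 671 nuclei with Reln, Zic1 and Zic4 among its leading genes against the other excitatory neuron-like clusters. The 8 excitatory neuron markers that named it summed to 1712 to 2217 CPM in its WT animals, below the 7 Cajal-Retzius markers at 2549 to 3074 CPM. Of the latter, Reln alone made up 2895 CPM over the 9 animals, and the other 6 Cajal-Retzius markers summed to 51.01 CPM. In cluster 2 the 10 radial glia markers, at 1718 to 1936 CPM in WT animals, likewise reached the excitatory neuron markers, at 1703 to 1729 CPM. Ptprz1 alone made up 1638 CPM of the radial glia sum, and the other 9 summed to 153 CPM, against 1489 CPM in radial glia-like nuclei. Both clusters stayed in the sums over the class. In the unnamed cluster 5, outside the class, the oligodendrocyte progenitor markers summed to 1489 to 1699 CPM in WT animals, beside 1452 to 1581 CPM for the excitatory neuron markers. Lhfpl3, among the leading genes of cluster 5, belongs to this list, and its part of the sum there is not given here. In clusters 17 and 18 Lhfpl3 alone made up 27.4 and 740 CPM, and the other 4 markers summed to 1.65 and 2.63 CPM. The order of Tbr1 then ran through overlapping neighbours down to cluster 18 (98.1 ± 17.9 CPM), and the intermediate progenitor-like clusters lay apart below, at 44.2 ± 6.82 and 29.5 ± 4.41 CPM.

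Bcl11b, a deep-layer factor in the mature cortex, was broad at this age. It was at 1110.2 ± 163 CPM in cluster 21, 916 ± 76.8 CPM in cluster 2 and 892 ± 86.8 CPM in cluster 4. Clusters 17 and 3, both upper-layer or migrating neuron-like with 4 of 10 listed markers, still held 795 ± 58.6 and 787 ± 55.5 CPM. Each of these 5 clusters overlapped the next in order. Cluster 3 lay apart from cluster 5, the sixth, while the lowest animal of cluster 17 (705 CPM) was just below the highest of cluster 5 (709 CPM). Bcl11a was highest in cluster 2 (1715 ± 92.5 CPM), cluster 19 (1597 ± 82.5 CPM) and cluster 17 (1537 ± 60.5 CPM), and lowest in cluster 18 (463 ± 48.9 CPM), led by Sim1 and Tll1.

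Cux1, Pou3f2 and Pou3f3 were highest in an intermediate progenitor-like cluster, and Cux2 in the unnamed cluster 5. Cux1 peaked in the intermediate progenitor-like cluster 22 (608 ± 31.9 CPM), was at 374 ± 58.9 CPM in cluster 3, and was at 38.2 ± 7.64 CPM in cluster 4 and 35.02 ± 5.37 CPM in cluster 2. Cux2 was at 573 ± 69.1 CPM in cluster 5, whose animals lay apart from those of cluster 17 (371 ± 44.1 CPM), was at 227 ± 28.3 and 124 ± 9.78 CPM in the intermediate progenitor-like clusters 22 and 23, and was at 23.3 ± 5.55 CPM in cluster 2 and 12.7 ± 7.01 CPM in cluster 4. Pou3f2 ran from 143 ± 23.5 CPM in cluster 22 to 5.86 ± 0.816 CPM in cluster 2. Pou3f3 ran from 245 ± 28.6 to 32.6 ± 3.72 CPM over the same clusters, with every neighbour in its order overlapping. For each of these 4 genes clusters 2 and 4 were the lowest of the 10.

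Across the 10 clusters Pou3f2 and Pou3f3 had a Pearson correlation of mean log2(CPM + 1) of 0.95, Cux1 and Cux2 of 0.87, and Bcl11b and Tbr1 of 0.91. Tle4 was inverse to Cux2 (-0.70). The 10 points share libraries, depth and the clustering, so these values are descriptions with no p. Among 6762 genes of at least 20 CPM, the closest to Pou3f3 in pattern was Pantr1 (0.98), a long noncoding RNA gene 926 bases away on the other strand, which was also the closest to Pou3f2 (0.96) and Cux1 (0.94). The closest to Cux2 was Smarcb1 (0.93), to Bcl11b Cnksr2 (0.98), to Bcl11a Itprid1 (0.92) and to Tle4 Khdrbs3 (0.84). For Fezf2 it was 3830406C13Rik (0.91), which lies 38863 bases away, and for Tbr1 it was Slc4a10 (0.92), 232348 bases away.

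Outside the excitatory lineage Fezf2 and Tbr1 were low in inhibitory cells, while the other members were found in both neuron classes. Fezf2 had a mean over 9 animals of 84.2 CPM in excitatory neuron-like, 2.78 CPM in inhibitory neuron-like and 37.7 CPM in radial glia-like nuclei. Tbr1 was at 129, 11.96 and 11.5 CPM in the same classes. Bcl11b, known also in striatal projection neurons, was at 755, 838 and 90.6 CPM, and Tle4 at 280.1, 307 and 195 CPM. Cux1 was highest in progenitors, at 669 CPM in inhibitory progenitor-like and 578 CPM in radial glia-like nuclei against 217 CPM in excitatory neuron-like nuclei.

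Co-detection asked which members were found in the same nucleus. Excitatory neuron-like nuclei were thinned to 1000 UMIs, which left out 3.05% of WT, 3.18% of Het and 2.37% of KO nuclei and kept 55619. Bcl11a was then detected in 65.9% of nuclei, Bcl11b in 48.2%, Cux1 in 18.2%, Tle4 in 17.7%, Cux2 in 16.1%, Tbr1 in 12.2%, Pou3f3 in 10.7%, Fezf2 in 7.72% and Pou3f2 in 3.95%. Without thinning the shares ran from 9.22% for Pou3f2 to 84.99% for Bcl11a. As a background, inhibitory neuron-like nuclei held Fezf2 in 0.263% and Tbr1 in 1.23%, at a median of 2377 UMIs before thinning against 2726 in excitatory ones. The 297 microglia and macrophage-like nuclei held Fezf2 in 0%, Tbr1 in 3.03%, Cux2 in 2.69%, Bcl11a in 6.73% and Bcl11b in 10.1%. For the Cux and Pou3f genes, the lowest shares among the clusters and classes examined were in clusters 2 and 4, at 3.26% for Cux1, 1.07% for Cux2, 0.441% for Pou3f2 and 3.21% for Pou3f3.

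The Cux and Pou3f genes were found together, and each was found less often with Fezf2 than without it. Cux2 was in 32.7% of nuclei with Cux1 and 12.5% of those without it. The log2 odds ratio of this pair was between 1.67 and 1.87 in the 9 animals, with a mean of 1.76 ± 0.06 (SD). Cux2 with Pou3f2 gave 1.46 ± 0.29, Cux1 with Pou3f2 1.22 ± 0.20 and Pou3f2 with Pou3f3 1.203 ± 0.33. All 6 pairs of these 4 genes were above 0 in all 9 animals. In the opposite direction, Cux2 was in 7.03% of nuclei with Fezf2 and 16.9% of those without it, a log2 odds ratio of -1.39 ± 0.23. Fezf2 with Cux1 gave -1.12 ± 0.23, with Pou3f2 -0.98 ± 0.47 and with Pou3f3 -0.55 ± 0.16, all below 0 in all 9 animals. Tle4 with Cux2 gave -0.73 ± 0.20 and Tle4 with Cux1 -0.65 ± 0.16, also below 0 in all 9 animals.

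**Figure D2:**
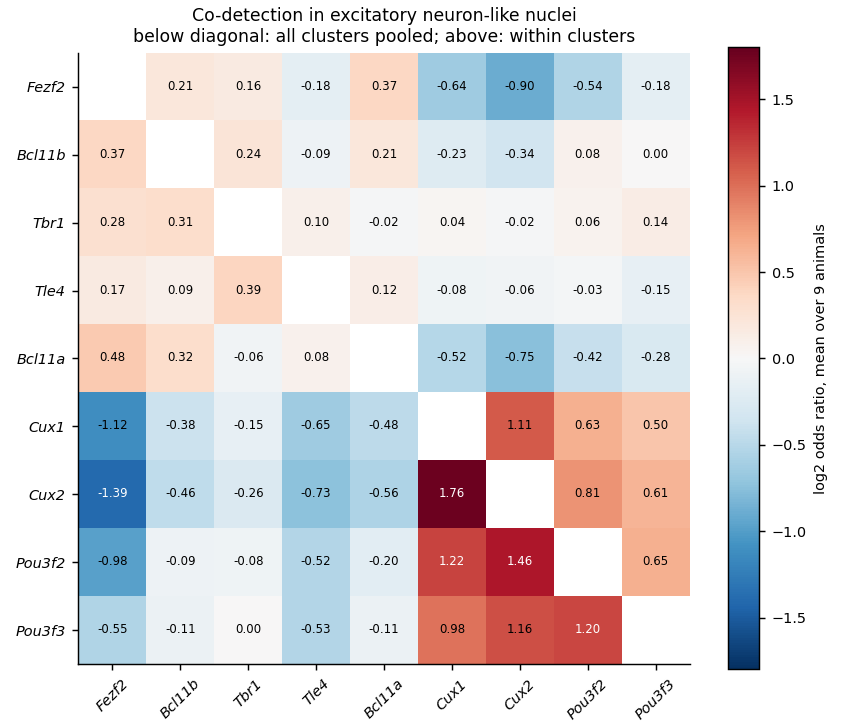
Mean log2 odds ratio over 9 animals for the 36 pairs of members in excitatory neuron-like nuclei thinned to 1000 UMIs, with clusters pooled below the diagonal and within clusters (Mantel-Haenszel) above it. Pairs among the Cux and Pou3f genes are positive on both sides of it, and pairs of Tle4 with the Cux genes are near 0 above it, as an average over clusters.

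Within clusters a part of this remained. Stratified by cluster, Cux1 with Cux2 was at 1.11 ± 0.06 and Fezf2 with Cux2 at -0.90 ± 0.25. Tle4 with Cux1 was at -0.08 ± 0.16 and Tle4 with Cux2 at -0.06 ± 0.17, within the spread between animals around 0. These values average clusters of both signs. In single clusters with animals pooled, Tle4 with Cux2 ran from -0.80 in cluster 3 to 0.29 in cluster 18. Tle4 with Cux1 ran from -0.23 in cluster 3 to 0.40 in cluster 4. Between single clusters, with animals pooled, Cux1 with Cux2 was highest in cluster 3 (2.12) and was at 1.29 in cluster 17. It was at 1.46 and 1.36 in clusters 2 and 4, from only 14 and 9 nuclei with both genes. In clusters 19, 5 and 18 it was 0.35, 0.22 and 0.11, and in clusters 23, 21 and 22 it was near 0, at 0.09, -0.05 and -0.08. Fezf2 with Pou3f3 ran from -0.65 in cluster 22 to 0.41 in cluster 5 and 0.72 in cluster 21, the last from 2 nuclei with both, so its direction was not the same in every cluster. Fezf2 with Bcl11b, both factors of subcerebral projection neurons, was at 0.37 ± 0.12 pooled and 0.21 ± 0.12 within clusters, a weak relation in sparse counts.

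Genotype was compared first over the whole excitatory neuron-like class, where 0 of 9 members passed in KO against WT. The test was edgeR's quasi-likelihood test on counts summed per animal, with a call at a Benjamini-Hochberg adjusted p under 0.05 and an absolute log2 fold change over 0.2, and it called 0.599% of 19359 genes. At an unadjusted p under 0.05 there was 1 member, beside 11.7% of all genes, and DESeq2 called 0 members. The members' log2 fold changes lay between -0.19 and 0.17, with a median of -0.03 beside -0.01 over all genes, and their median SE was 0.11. With the replicate number as a block 0 members passed, beside 5.45% of genes. With cluster 21 left out, chosen after seeing the data, 0 members passed edgeR's test in KO or Het. The shares of all genes called in that fit and by DESeq2 are not given here, so those counts cannot be set against them. In summed counts, fewer nuclei of a kind and less RNA per nucleus cannot be told apart.

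**Figure D3:**
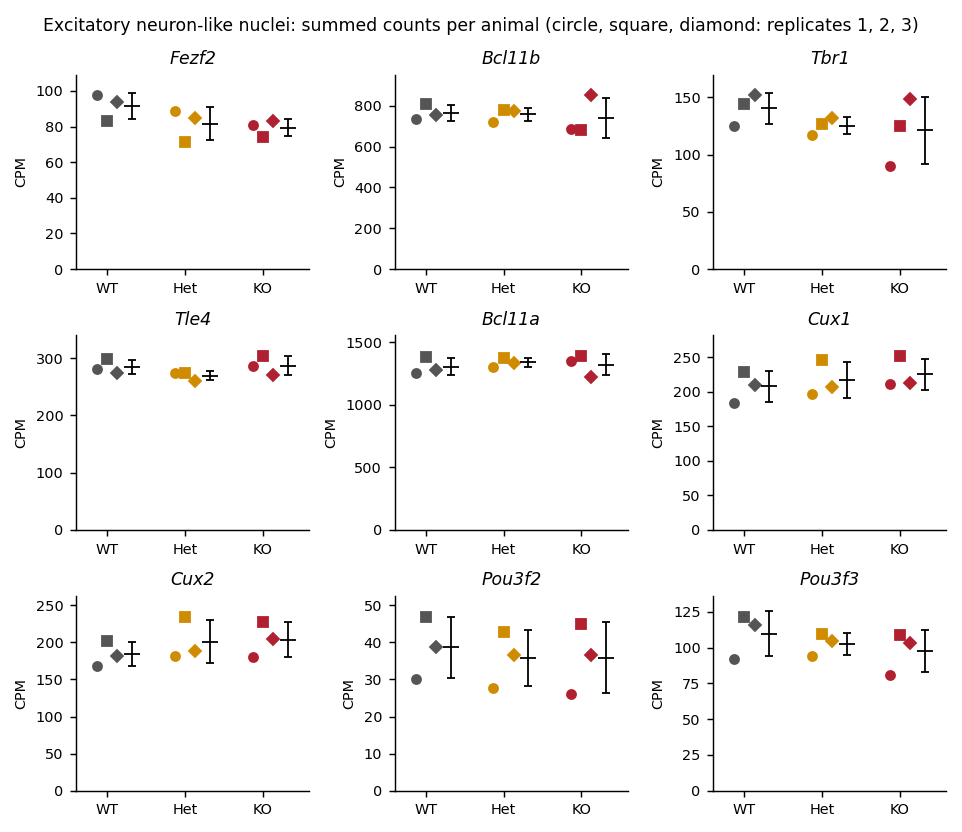
CPM of each member in excitatory neuron-like nuclei, with 1 symbol per animal (circle, square and diamond for replicates 1, 2 and 3) and the mean and SD of 3 animals beside each genotype. WT and KO animals overlap for all 9 members, where 16.1% of all genes did not overlap.

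Fezf2 came nearest, at 97.5, 83.1 and 94.1 CPM in WT, 88.95, 71.6 and 84.6 CPM in Het and 80.7, 74.3 and 83.4 CPM in KO animals. The highest KO animal was just above the lowest WT animal, and the log2 fold change was -0.18 ± 0.08 (SE, adjusted p = 0.378 by edgeR). Bcl11b was at 735, 810.0 and 756 CPM in WT and 688, 680.1 and 851 CPM in KO animals, a log2 fold change of -0.03 ± 0.08. Tbr1 was at 125, 145 and 152 CPM in WT and 90.3, 125 and 149 CPM in KO animals. Its lowest value was in KO replicate 1, the animal with the different cluster make-up. The log2 fold change was -0.19 ± 0.13, and -0.024 without that animal, and it passed in neither fit.

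In Het against WT 0 of 9 members passed in this class, with log2 fold changes from -0.16 to 0.14, 0 members at an unadjusted p under 0.05 (3.6% of genes were) and 0 by DESeq2, where edgeR called 0% of all genes. Het and KO share the WT animals. In intermediate progenitor-like, radial glia-like, inhibitory neuron-like and inhibitory progenitor-like nuclei 0 members passed in either contrast, by edgeR or DESeq2. In KO edgeR called 0.0423% of genes in inhibitory neuron-like nuclei and 0% in the other three. The 1 member at an unadjusted p under 0.05 was Pou3f3 in KO, where 3.9% of all fits were, against 2.23% in Het. It had a log2 fold change of -0.22 ± 0.09 in intermediate progenitor-like nuclei (adjusted p = 0.9998) and -0.16 ± 0.07 in radial glia-like nuclei (adjusted p = 0.9999). The genotype effect was also compared between excitatory and inhibitory neuron-like nuclei of the same animals by an interaction term, and 0 members differed in KO (0.0644% of 20193 genes did) or in Het (0%). At an unadjusted p under 0.05 there were 0 members in KO (5.96% of genes were) and 1 in Het (3.43% of genes were), Tle4, with a difference of -0.20 ± 0.05 (log2, excitatory minus inhibitory, adjusted p = 1.00 by edgeR).

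Cluster by cluster, KO against WT gave 1 call among 89 fits of a member in a cluster, Cux2 in cluster 3, beside 0.736% of all gene fits in these clusters. This cluster, led by Btbd11 and Bcl6, held 9061 nuclei, with at least 645 in every animal. Cux2 was there at 273, 309.6 and 293 CPM in WT, 287, 349 and 339 CPM in Het and 457, 362 and 362 CPM in KO animals. Each KO animal was above each WT and each Het animal. WT and KO animals did not overlap for 19.3% of all genes in this cluster. The log2 fold change was 0.45 ± 0.10 (SE, adjusted p = 0.0215 by edgeR), in a cluster where 2.48% of 12306 genes were called. For Het it was 0.17 ± 0.10 (adjusted p = 0.9999). In cluster 17, also upper-layer or migrating neuron-like, Cux2 was at 355, 408 and 370 CPM in WT and 287, 413 and 395 CPM in KO animals. In cluster 19 it was at 299, 342 and 287 CPM in WT and 243, 326 and 321 CPM in KO animals. Both overlapped. KO replicate 1 was the highest animal for Cux2 in cluster 3 and the lowest in clusters 17 and 19. Over the 10 clusters the KO change of Cux2 was positive in 6 and negative in 4.

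**Figure D4:**
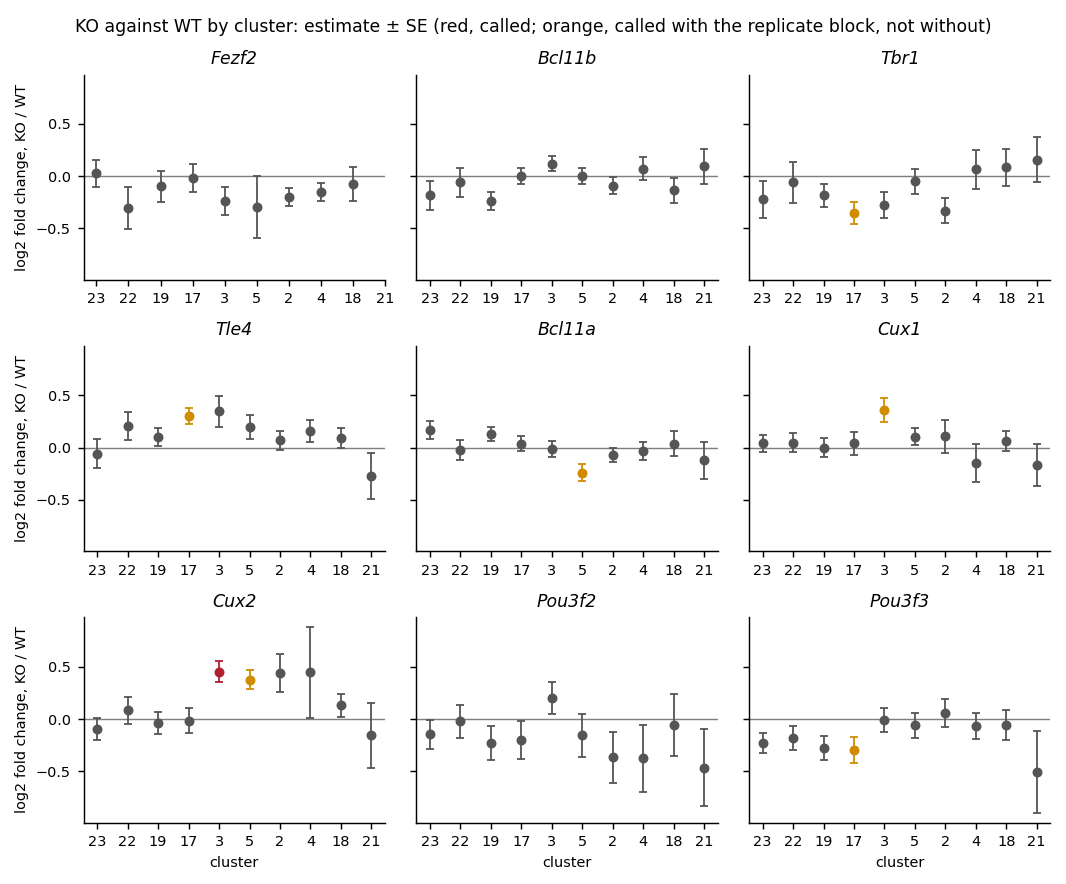
Log2 fold change of KO against WT, with its SE, for each member in the excitatory lineage clusters, 1 panel per gene. Red marks the call with genotype alone, Cux2 in cluster 3, and orange the 6 values called with the replicate block and not without it.

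Animals with the same replicate number deviated together, so the fit with the replicate number as a block is given where it changed a call. The labels do not say what the number stands for, and this pairing was read from the same data. With the block Cux2 in cluster 3 was at 0.45 ± 0.09 (adjusted p = 0.00187), and 6 more of the 89 values passed, in fits that called 6.04% of genes in cluster 3, 3.52% in cluster 5 and 0.612% in cluster 17. Its paralog Cux1 in cluster 3 was at 294, 388 and 341 CPM in WT and 472, 451 and 369 CPM in KO animals. The genotypes overlapped through KO replicate 3, and the log2 fold change was 0.36 ± 0.12 without the block (adjusted p = 0.116) and 0.36 ± 0.09 with it (adjusted p = 0.0119). With run 1 alone it was 0.18 and with run 2 alone 0.41.

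In cluster 5 Cux2 was at 450.4, 559.9 and 498 CPM in WT, 546, 611 and 575 CPM in Het and 616, 678 and 621 CPM in KO animals. KO animals were above all WT animals, where 16.1% of genes did not overlap. The log2 fold change was 0.37 ± 0.09 (adjusted p = 0.0698, with 0.771% of genes called) and 0.38 ± 0.06 with the block (adjusted p = 0.000213). Bcl11a went the other way in this cluster, at 789, 757 and 695 CPM in WT and 589, 627 and 641 CPM in KO animals, without overlap. Its log2 fold change was -0.24 ± 0.08 (adjusted p = 0.235) and -0.24 ± 0.06 with the block (adjusted p = 0.0262), and it was -0.11 with run 1 alone and -0.28 with run 2 alone.

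Cluster 17, led by Adamtsl3, Cemip and Nrp1, held the other 3 values called with the block and not without it, in a cluster where 0.00774% of genes were called without it. Tbr1 was at 108, 117 and 125 CPM in WT and 75.6, 86.4 and 104 CPM in KO animals, which did not overlap (12.1% of genes did not). Its log2 fold change was -0.35 ± 0.10 (adjusted p = 0.544) and -0.36 ± 0.07 with the block (adjusted p = 0.0137). Tle4 was at 168, 172 and 161 CPM in WT, 187, 203 and 200.2 CPM in Het and 213, 199 and 192 CPM in KO animals, so that Het and KO animals were above all WT animals (9.61% of genes did not overlap in Het). Its KO log2 fold change was 0.30 ± 0.08 (adjusted p = 0.503) and 0.30 ± 0.07 with the block (adjusted p = 0.0227). Pou3f3 was at 157, 212 and 196 CPM in WT and 122, 152 and 175 CPM in KO animals, which overlap, with a log2 fold change of -0.30 ± 0.12 (adjusted p = 0.640) and -0.30 ± 0.07 with the block (adjusted p = 0.0285). With run 1 alone it was -0.50 and with run 2 alone -0.23.

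**Figure D5:**
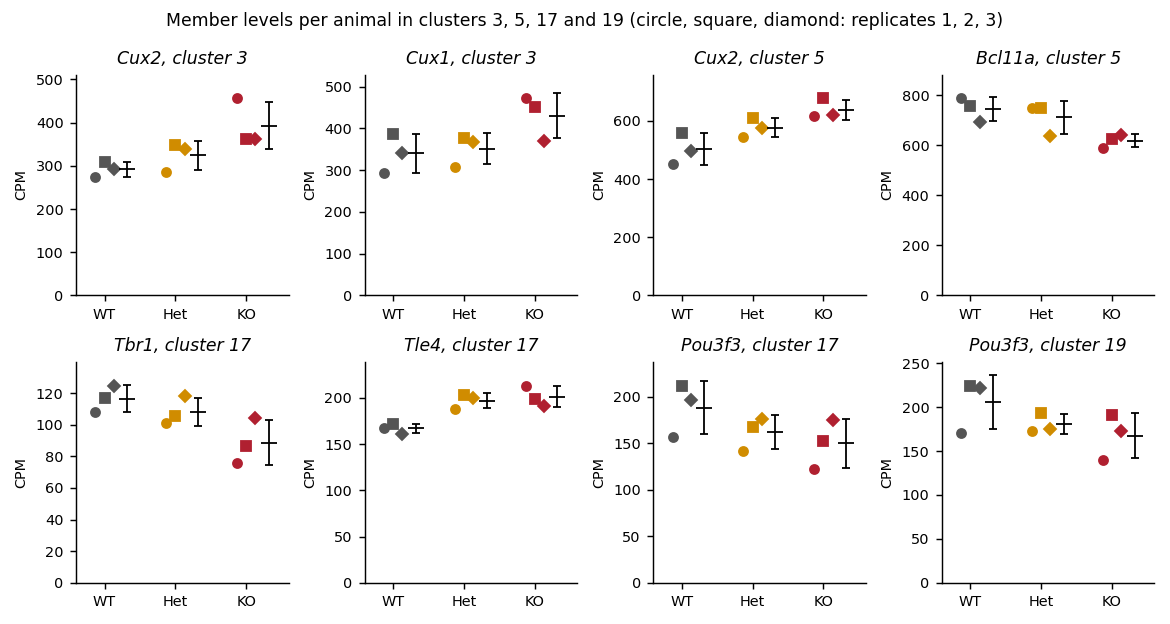
CPM per animal (circle, square and diamond for replicates 1, 2 and 3), with the mean and SD of 3 animals beside each genotype, for the members named in clusters 3, 5 and 17 and for Pou3f3 in cluster 19, which did not pass. KO animals lie above all WT animals for Cux2 in clusters 3 and 5 and Tle4 in cluster 17, and below them for Bcl11a in cluster 5 and Tbr1 in cluster 17.

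The Cux2 call in cluster 3 passed without WT replicate 2, KO replicate 2 or KO replicate 3 (adjusted p = 0.0359, 0.0363 and 0.00833 by edgeR). It also passed without any single Het animal (adjusted p = 0.0130 to 0.0333 by edgeR). Het animals enter this contrast mainly through the shared spread, so those fits test it little. Without WT replicate 1, WT replicate 3 or KO replicate 1 the log2 fold change was 0.40, 0.45 and 0.33 and it did not pass (adjusted p = 0.0891, 0.0870 and 0.103). With run 1 alone it was 0.26 ± 0.12 (adjusted p = 0.475) and with run 2 alone 0.50 ± 0.11 (adjusted p = 0.0156).

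Markers of other cell types were read in cluster 3 beside this result, and their part in it was not tested. The 11 inhibitory neuron markers summed to 124 to 159 CPM in WT and 89.5 to 171 CPM in KO animals, and the 8 intermediate progenitor markers to 116 to 129 CPM and 115 to 144 CPM. The 7 diencephalic neuron markers summed to 24.5 to 25.2 CPM in WT and 44.00 to 48.5 CPM in KO animals, which do not overlap. Lef1 alone was at 24.00 CPM of this sum over the 9 animals, and the other 6 summed to 5.795 to 9.401 CPM in WT and 10.3 to 16.2 CPM in KO animals. The sums were also apart between WT and KO animals in the whole excitatory neuron-like class (82.6 to 88.7 CPM and 101 to 136 CPM), in cluster 17 (104 to 109 CPM and 112 to 171 CPM), in cluster 2 (123 to 145 CPM and 161 to 179 CPM) and in cluster 18 (75.2 to 89.1 CPM and 90.4 to 128 CPM), and overlapped in clusters 4, 5 and 19. Lef1 led the sum in the class and in clusters 17 and 2, where the other 6 markers overlapped between WT and KO animals. Lhx9 led it in cluster 18. There the other 6 summed to 24.9 to 26.2 CPM in WT and 30.8 to 55.8 CPM in KO animals, without overlap. Inhibitory progenitor markers were apart in the other direction in cluster 2 (20.6 to 23.6 CPM and 12.5 to 18.8 CPM) and the class (23.1 to 27.9 CPM and 21.1 to 22.998 CPM), as were oligodendrocyte progenitor markers, nearly all Lhfpl3, in cluster 19 (48.1 to 60.9 CPM and 34.04 to 47.6 CPM). Radial glia markers were higher in KO in cluster 21 (573 to 634 CPM in WT and 723 to 774 CPM in KO animals). Cajal-Retzius markers were lower in KO in cluster 23 (123 to 131 CPM and 116 to 117 CPM). Every list was read in every cluster, and how many sums would lie apart without a genotype effect was not tested. The part of these marker sums in the Tbr1, Tle4 and Pou3f3 values of cluster 17, the Fezf2 values and the Bcl11b values of cluster 19 was not tested either. Cluster 3 made up 15.8% to 16.98% of the excitatory neuron-like class in WT and 12.8% to 16.6% in KO animals. Myt1l rose in this cluster by 0.46 ± 0.08 (adjusted p = 0.00273).

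The remaining fits gave no call. Of the 89, 15 had an unadjusted p under 0.05, beside 8.48% of all fits. In cluster 2 Fezf2 was at 162, 138 and 168 CPM in WT and 132, 133 and 137 CPM in KO animals, which did not overlap (13.4% of genes did not), with a log2 fold change of -0.20 ± 0.09 (adjusted p = 0.558). In the deep-layer-like cluster 4 it was at 136, 138 and 141 CPM in WT and 108, 128 and 130.3 CPM in KO animals, again without overlap (19.8%), with a log2 fold change of -0.15 ± 0.09 (adjusted p = 0.450). Bcl11b in cluster 19 was at 595, 564 and 566 CPM in WT and 484, 403 and 555 CPM in KO animals, a log2 fold change of -0.24 ± 0.09 (adjusted p = 0.995), also without overlap (9.24%). Pou3f2 in cluster 2 and Pou3f3 in cluster 23 were also lower in KO without overlap, where 1674 of 12494 and 1060 of 11622 genes did not overlap. The same held for Pou3f3 in radial glia-like nuclei (1257 of 17045 genes). In clusters 18, 21 and 22 WT and KO animals overlapped for every member tested, where 1584 of 11241, 368 of 3930 and 893 of 9793 genes did not overlap. Whether a member's change differed between clusters was not tested.

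In Het against WT 0 of the 89 cluster fits passed, beside 0.000886% of all fits, and DESeq2 called 0. An unadjusted p under 0.05 was found for 5, beside 3.56% of all fits. Cux2 had log2 fold changes of 0.57 ± 0.19 in cluster 2, 0.25 ± 0.11 in cluster 18 and 0.22 ± 0.09 in cluster 5, Fezf2 of -0.42 ± 0.17 in cluster 18 and Tle4 of 0.27 ± 0.08 in cluster 17, with adjusted p-values from 0.9996 up by edgeR. Cux2 was low in cluster 2, at 21.4, 15.6 and 18.4 CPM in WT and 32.8, 28.5 and 20.3 CPM in Het animals, which overlap. In cluster 18 Het and WT animals did not overlap for Cux2, Fezf2 and Tle4, beside 8.9% of genes. The same held for Pou3f2 and Tbr1 in cluster 2 (1205 of 12494 genes), Bcl11b in cluster 3 (1263 of 12306) and Bcl11a in cluster 19 (1188 of 12468). In clusters 4, 5, 21, 22 and 23 Het and WT animals overlapped for every member tested. The KO values given above share these WT animals.

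Other genes of cortical neuron identity were read from lists. In KO excitatory neuron-like nuclei 0 of 8 tested relatives of the members, 0 of 19 partners and regulators and 0 of 10 upper-layer markers passed, with median log2 fold changes of -0.02, 0.02 and -0.05. Of 12 deep-layer markers 1 fell, Nr4a2, a nuclear receptor found in subplate neurons (-0.57 ± 0.09, adjusted p = 0.0174), beside 0.599% of all genes called. In cluster 3, 0 of 7 tested relatives and 0 of 19 partners and regulators passed. Of 10 upper-layer markers there Unc5d, a netrin receptor of migrating neurons, rose (0.44 ± 0.11, adjusted p = 0.0445), and of 9 tested deep-layer markers Crim1 rose (0.49 ± 0.10, adjusted p = 0.0152) and Nr4a2 fell (-0.92 ± 0.21, adjusted p = 0.0259), beside 2.48% of all genes called. In the deep-layer-like cluster 4 the deep-layer marker Hs3st4, a heparan sulfate sulfotransferase, rose (0.41 ± 0.10, adjusted p = 0.0343), 1 of 12, and so did the upper-layer marker Mdga1 (0.55 ± 0.08, adjusted p = 0.00241), 1 of 9 tested, where 3% of all genes were called. In cluster 5 Hs3st4 rose (0.86 ± 0.13, adjusted p = 0.00633), 1 of 10 tested, and the upper-layer marker Kitl fell (-0.62 ± 0.11, adjusted p = 0.00961), 1 of 9 tested, beside 0.771% of all genes called.

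Co-detection was compared between genotypes by limma on the log2 odds ratios of the 36 pairs. In KO 0 pairs passed (0%), with 4 at an unadjusted p under 0.05, and in Het 0 passed (0%), also with 4. At 1500 UMIs the counts at an unadjusted p under 0.05 were 0 in KO and 1 in Het, and without thinning 0 in both. Stratified by cluster they were 5 in KO and 6 in Het (smallest limma adjusted p = 0.0664 and 0.236). With run 1 alone they were 3 and 3, and with run 2 alone 5 and 0. With 3 animals against 3 an exact permutation test cannot go below 0.10. Bcl11b with Fezf2 had the lowest p in KO, with log2 odds ratios of 0.22, 0.34 and 0.17 in WT, 0.33, 0.44 and 0.41 in Het and 0.46, 0.49 and 0.49 in KO animals. The difference between KO and WT was 0.24 (95% interval 0.06 to 0.42, not adjusted for the 36 pairs, limma adjusted p = 0.357). In Het the lowest p was for Fezf2 with Cux1, at -1.32, -1.52 and -1.13 in WT and -0.85, -1.02 and -0.78 in Het animals, a difference of 0.44 (0.19 to 0.69, also not adjusted, limma adjusted p = 0.114). It passed without WT replicate 3 (adjusted p = 0.0458). Cux1 with Cux2 differed by 0.02 between KO and WT (95% interval -0.15 to 0.19).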

How the data were processed

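Single-nucleus RNA was measured in forebrain of 9 embryos (3 WT, 3 Het, 3 KO), each in 2 runs, with a Scale Biosciences kit. The authors mapped reads to mm10 and counted them with the kit maker's pipeline, and the submitters' processing notes name Seurat 4.3.0, DESeq2 1.38.3 and Scanpy 1.12.0. The deposited matrices hold expected counts (estimated UMI counts) of 55335 genes in 261143 barcodes, with 6.70% to 8.71% of entries not whole per library, and sums were rounded after adding up nuclei.

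By the study's limits on genes, UMIs and mitochondrial reads, barcodes needed between 300 and 3000 genes, between 800 and 6000 UMIs, no more than 1% of UMIs from mitochondrial genes and a log gene to log UMI ratio of 0.9 or more. The study removed multiplets with DoubletFinder, and here, in its place, the 5% of barcodes with the highest Scrublet scores in each library were removed. Of the barcodes, 3740 occurred in more than 1 library, 3429 of them in different animals, and all were kept. Clusters were made with scanpy 1.11.5 (3000 variable genes without the members, 50 components, 20 neighbours, Leiden resolution 1) and named from marker lists by a rule set after seeing the data, so names need not match those of the study. The members, lists and tests were chosen with earlier results of these data known. Always named were the members and Myt1l, then called genes of the lists and the genes closest in pattern over clusters.

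Counts summed per animal were tested with edgeR 4.0.16 (filterByExpr, TMM, quasi-likelihood, two-sided, genotype only, 9 animals), adjusted over all genes of a fit. DESeq2 1.42.0, other filters, single runs, left-out animals and a replicate block were alternatives. Same-numbered WT and KO animals had correlated deviations in every pair (0.125 to 0.249 in excitatory and 0.130 to 0.301 in inhibitory neuron-like nuclei), so by this check from the data the numbers may pair WT with KO. The labels name no litter or pairing. The check used the same counts that were then tested with the block, in a fit that also held the Het animals. For WT with Het the range was 0.0988 to 0.252 in excitatory nuclei, not over 0.1 in every pair, and 0.127 to 0.295 in inhibitory ones. For Het with KO it was 0.148 to 0.202 in excitatory and 0.143 to 0.265 in inhibitory nuclei. Co-detection used log2 odds ratios per animal with 0.5 added to each count, tested with limma 3.58.1. Animals came from separate embryos, but litter and sex were not modelled. The edgeR script was tested on simulated data.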

Additional observations from a re-analysis of the deposited data

How the results depend on the processing

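The replicate block took the count of member values called in excitatory lineage clusters in KO from 1 to 7 of 89, and it changed no other count of member calls. Without it 0.736% of all gene fits in these clusters were called. With it 6.04%, 3.52% and 0.612% of genes were called in clusters 3, 5 and 17, which held the 7 values. Shares over all genes for the other clusters with the block, and for the alternatives below, are not given here, so these counts cannot be set against them. The first count was 2 with DESeq2, 3 without a filter on low counts, 0 with run 1 alone, and 0 to 3 when single animals were left out. DESeq2 and the fit without a filter also called Cux2 in cluster 5, and the latter Cux1 in cluster 3. Without WT replicate 2 Cux2 in cluster 5 passed too, and without KO replicate 3 Cux1 in cluster 3 and Tbr1 in cluster 2. The DESeq2 and no-filter fits of the clusters were chosen after seeing the data. For co-detected pairs in Het the count was 0 to 1 without single animals. The counts of members called within classes stayed at 0 under all alternatives run. Of the single log2 fold changes in excitatory neuron-like nuclei, those near 0 changed sign. Leaving out single animals gave -0.13 to 0.023 for Bcl11b, -0.013 to 0.11 for Bcl11a, -0.024 to 0.089 for Tle4 and -0.30 to 0.097 for Pou3f2 in KO, and -0.049 to 0.055 for Bcl11b, -0.040 to 0.17 for Cux1, -0.27 to 0.082 for Pou3f2 and -0.21 to 0.012 for Pou3f3 in Het. With the members among the clustering genes the class held 38238 nuclei, and 32466 of these were among the 57256 of the main class. Clusters led by Hs3st3b1 (8051 nuclei) and by Sim1 (4741 nuclei) stayed unnamed there, so the class was a different mix of cells. In it Bcl11a in KO was at -0.018 and Bcl11b and Tle4 in Het at 0.024 and 0.18. Tle4 in KO was at -0.014 without upper limits on UMIs, and Bcl11b in Het at 0.079 with run 1 alone, 0.0021 with doublets kept and 0.00023 with cluster 21 left out. The levels of co-detection of the 36 pairs were also read at 1500 UMIs, without thinning, with single runs and stratified by cluster. Of these values 116 lay within the SD between animals of the main value and 64 lay further off. Of the differences in log2 odds ratio, Fezf2 with Pou3f3 in KO was at 0.074 without thinning and 0.099 with run 1 alone. At 1500 UMIs Tle4 with Cux1 in KO was at 0.042, and in Het Cux2 with Pou3f2 at 0.13 and Pou3f2 with Pou3f3 at -0.034. The causes were not tested. At 1000 UMIs Pou3f2 was in 3.95% of nuclei, the lowest share of the 9, so its pairs rest on few nuclei.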

Other observations

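Taken over sets in excitatory neuron-like nuclei thinned to 1000 UMIs, nuclei with at least 1 of Fezf2, Tbr1 and Tle4 and at least 1 of Cux1, Cux2, Pou3f2 and Pou3f3 made up 8.45% to 10.1% of nuclei per animal. Nuclei with the first set alone made up 21.4% to 24.6% and those with the second alone 23.8% to 28.9%. The log2 odds ratio between the sets was between -0.87 and -0.50 in the 9 animals with clusters pooled, and nearer 0 within clusters, at -0.32 to -0.073. With Bcl11b added to the first set it was -0.83 to -0.504 pooled and -0.38 to -0.12 within clusters. These sets were chosen after seeing the data. Of the 9 members, 0 were detected in 6.399% to 8.33% of nuclei per animal and exactly 2 in 34.8% to 36.7%. These shares count detection at this depth and not expression.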
